A study of Mus musculus with 18 samples.

Results

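Soluble ovalbumin (OVA) was given intravenously to mice already sensitized to OVA, and the transcriptomes of B cells from the spleen and from the Peyer's patches (PP) were compared with those of mice given PBS. The question addressed here was whether the change with soluble OVA differed between the 2 tissues. The 12 libraries labelled spleen or PP and PBS or soluble OVA were taken from the 18 libraries of the study, with 3 libraries in each of the 4 groups. The tested quantity was the interaction of tissue and treatment, that is, the log2 change in PP (soluble OVA against PBS) minus the log2 change in spleen. A negative value means that the change was lower in PP than in spleen, and a positive value that it was higher in PP.

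All mice were female BALB/cJ, 4 to 6 weeks old at the start and 10 to 12 weeks old at collection, and carried no transgene. All of them, the PBS controls included, received 20 µg OVA with 1 mg alum intraperitoneally on days 0 and 14. Intravenous treatment followed on days 28 and 42 with 100 µL PBS or 100 µg soluble OVA, and B cells were collected on day 44, before any oral challenge. The remaining 6 libraries came from mice given 2.5 mg OVA nanoparticles (OVA NPs) on the same days. B cells were enriched from both tissues by negative magnetic selection, but PP were first minced and digested with collagenase for 30 minutes while spleens were dissociated mechanically. Effects of tissue and of this digestion therefore cannot be told apart, although both PP groups were digested. Nothing in the labels ties a spleen library and a PP library to the same mouse.

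PP are lymphoid follicles of the small intestine that sample gut antigen and hold germinal centers continuously, whereas spleen follicles form germinal centers after antigen reaches the blood. In a germinal center, B cells divide, mutate their receptors and switch the heavy-chain constant region, which sets the antibody class, and later leave as memory or plasma cells. Naive follicular B cells carry surface IgM and IgD with the low-affinity IgE receptor CD23. Naive, germinal center and memory B cells present antigen to T cells on MHC class II.

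The 12 libraries held 14177253 to 30052297 expected counts, so that 3 counts corresponded to 0.0998 to 0.212 CPM (counts scaled to a common library size). B cell marker genes were high in each of them, with a summed level over 7 genes of 9140 to 9494 CPM in spleen with PBS and 8730 to 8972 CPM with soluble OVA, and of 6767 to 7247 and 5829 to 6730 CPM in PP. The sum was therefore lower with soluble OVA in both tissues without overlap. Of the 7 genes 1 was called within a tissue, *Cd79a*, a subunit of the B cell receptor, which fell in PP (by 0.38 on the log2 scale), and 0 passed the interaction test. *Ms4a1*, which encodes CD20, ranged from 958 to 1353 CPM over the 12 libraries and passed neither the test in spleen, nor in PP, nor of the interaction (adjusted p = 0.991). *Ptprc*, which encodes CD45, passed none of these tests either, with an interaction value of −0.10. Markers of other cells were lower. The epithelial list held 7.37 to 10.1 CPM in spleen. In PP it held 243 to 860 CPM with PBS and 293 to 1182 CPM with soluble OVA, with overlapping groups. The neutrophil list held 189 to 511 CPM in spleen with PBS, 278 to 513 CPM with soluble OVA and at most 2.09 CPM in PP. The T cell list held 76.8 to 214 CPM. In 2 libraries, spleen soluble OVA replicate 2 and PP PBS replicate 3, summed olfactory and vomeronasal receptor transcripts reached 323 and 135 CPM, against 23.2 to 73.1 CPM in the other 10. Of 33 such receptor genes tested, 5 (15.2%) were called in the interaction, all lower in PP, against 5.07% called lower over all tested genes. Because the libraries are bulk samples, fewer cells of a type and less RNA per cell cannot be told apart. The labels call the libraries biological replicates without naming the animals, so the p-values measure the spread between these samples.

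In the 12 libraries, 16541 genes were tested with edgeR's quasi-likelihood test, and 1131 of them (6.84%) differed between tissues in their response to soluble OVA at an adjusted p under 0.05. The change was lower in PP for 838 genes (5.07%) and higher in PP for 293 genes (1.77%). Over all tested genes the median interaction was −0.04 on the log2 scale. In spleen alone, soluble OVA raised 1277 genes (7.72%) and lowered 493 (2.98%), and in PP it raised 2382 (14.4%) and lowered 2635 (15.9%), with a log2 fold change beyond 0.25 also required. The median log2 change of all genes was 0.00 in spleen and −0.02 in PP. These shares over all tested genes are the background for each list count given below. With 1 library left out at a time, the interaction count ranged from 655 to 1279. It fell to 655 without spleen PBS replicate 1 and to 700 without spleen PBS replicate 2, while 551 genes (48.7%) were called in all 12 of these fits and 0 changed sign. Without both libraries rich in receptor transcripts, 606 genes were called.

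The most frequent pattern among the 838 genes was a fall in PP with no call in spleen, seen for 530 of them. A further 95 fell in both tissues, and more so in PP. The response was opposite for 63 genes, which rose in spleen and fell in PP. Another 88 rose in spleen with no call in PP, and 45 rose in both tissues but less in PP. Of the 293 genes with the higher change in PP, 227 rose in PP with no call in spleen, 29 rose in both and 7 fell in spleen and rose in PP. The tissues also shared part of the response, as 939 genes rose in both and 865 of these were not called in the interaction. A missing call in spleen depends on the fit. The 6 spleen libraries fitted alone gave 2428 spleen calls, 60.9% of them rises, against 1770 in the fit of 12 libraries.

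**Figure D1:**
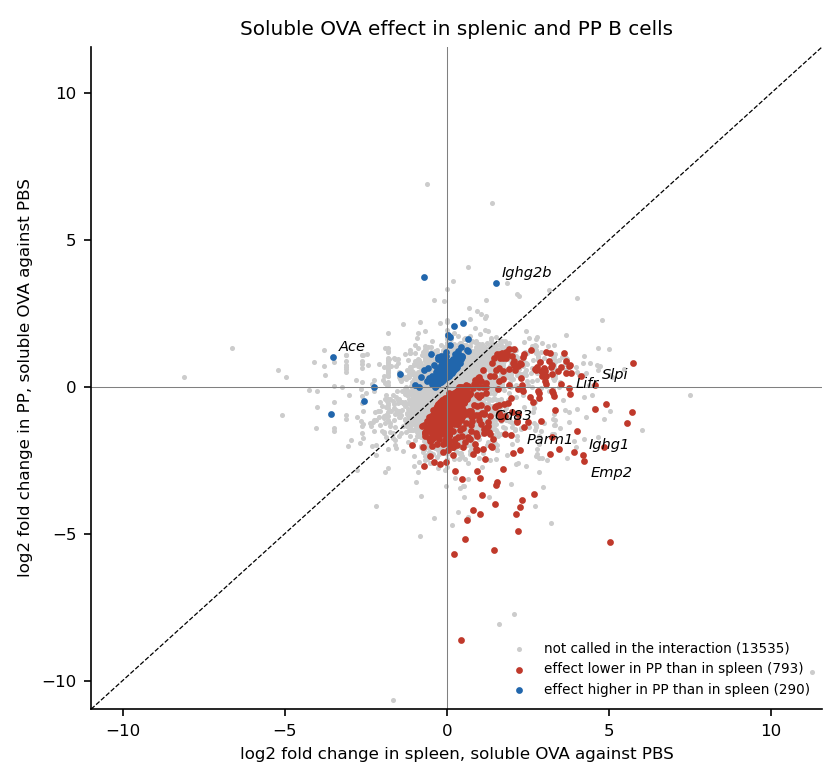
Log2 fold change with soluble OVA against PBS in spleen (x axis) and in PP (y axis) for the 14618 genes with a mean of at least 1 CPM in any group, each point 1 gene. Points on the dashed diagonal changed equally in both tissues; the 793 genes called lower in PP (red) lie below it and the 290 called higher in PP (blue) lie above it.

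Among the heavy-chain constant region genes, *Ighg1* and *Ighg2b* had interactions of opposite sign. *Ighg1* (chr12:113325240-113330523, GRCm38), the IgG1 constant region, stood at 25.7, 20.4 and 49.9 CPM in the 3 spleen PBS libraries and at 653, 429 and 671 CPM after soluble OVA. In PP, it went from 992, 776 and 890 CPM with PBS to 151, 204 and 179 CPM with soluble OVA. The groups did not overlap in either tissue, and the highest spleen level after soluble OVA stayed below the lowest PP level with PBS. The log2 change was 4.19 ± 0.35 (SE) in spleen and −2.32 ± 0.32 in PP, and the interaction was −6.51 ± 0.47 (edgeR adjusted p = 0.000107), called in all 12 fits with a library left out.

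*Ighg2b* (chr12:113302965-113307933), the IgG2b constant region, rose in both tissues, and by more in PP. In spleen it was measured at 10.7, 6.64 and 12.5 CPM with PBS and at 33.3, 20.3 and 30.4 CPM with soluble OVA. In PP the PBS libraries held 83.1, 153 and 153 CPM and the soluble OVA libraries 1677, 1528 and 1317 CPM. Again the groups did not overlap in either tissue, and each PP library of soluble OVA lay far above all PP libraries of PBS. The log2 change was 1.51 ± 0.33 in spleen and 3.54 ± 0.30 in PP, with an interaction of 2.03 ± 0.43 (adjusted p = 0.0246). This call was lost without spleen PBS replicate 1 or 3, spleen soluble OVA replicate 2 or PP soluble OVA replicate 2, with adjusted p up to 0.0742, and also without both libraries rich in receptor transcripts (adjusted p = 0.0689).

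*Ighe* (chr12:113269260-113273248), the IgE constant region and the class behind allergic reactions, rose only in the spleen test. Its levels were 2.07, 2.23 and 3.19 CPM in spleen with PBS and 14.8, 6.45 and 14.9 CPM with soluble OVA, a log2 change of 2.27 ± 0.32. In PP it stayed between 0.71 and 1.32 CPM in all 6 libraries, with overlapping groups. The interaction was −1.99 ± 0.49 (adjusted p = 0.0234). It lost its call in 8 of the 12 fits with a library left out, with adjusted p up to 0.069: without spleen PBS replicate 1 or 2, spleen soluble OVA replicate 1 or 3, PP PBS replicate 2 or 3, or PP soluble OVA replicate 2 or 3. It was also lost with limma voom (adjusted p = 0.271) and in the fit of all 18 libraries (adjusted p = 0.18).

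*Igha* (chr12:113254830-113260236), the IgA constant region of mucosal antibody, rose in PP from 650, 393 and 583 CPM to 1377, 1256 and 1083 CPM, a log2 change of 1.19 ± 0.18. In spleen it ranged from 5.19 to 8.93 CPM and did not pass the test, but neither did the interaction (0.93 ± 0.31, adjusted p = 0.104). *Ighd* (chr12:113406604-113416324), the IgD constant region of naive B cells, was 755, 964 and 862 CPM in PP with PBS and 368, 270 and 294 CPM with soluble OVA. In spleen, *Ighd* went from 1554, 1522 and 1595 CPM to 1524, 1393 and 1272 CPM, and the interaction was −1.31 ± 0.16 (adjusted p = 0.000246). *Ighm*, the IgM constant region, fell in both tissues, by 0.31 on the log2 scale in spleen and by 0.46 in PP, and the interaction did not pass (adjusted p = 0.525). *Ighg3* rose in PP (0.99 ± 0.27) and had an interaction of 0.53 (adjusted p = 0.496), and *Ighg2c* was not called in any comparison. Of 8 constant region genes tested, 1 was therefore called higher and 3 lower in PP, against 1.77% and 5.07% of all tested genes. The IgG constant regions are related genes, and the mouse strain differs from the reference strain in this locus. How reads were divided among them was not tested.

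**Figure D2:**
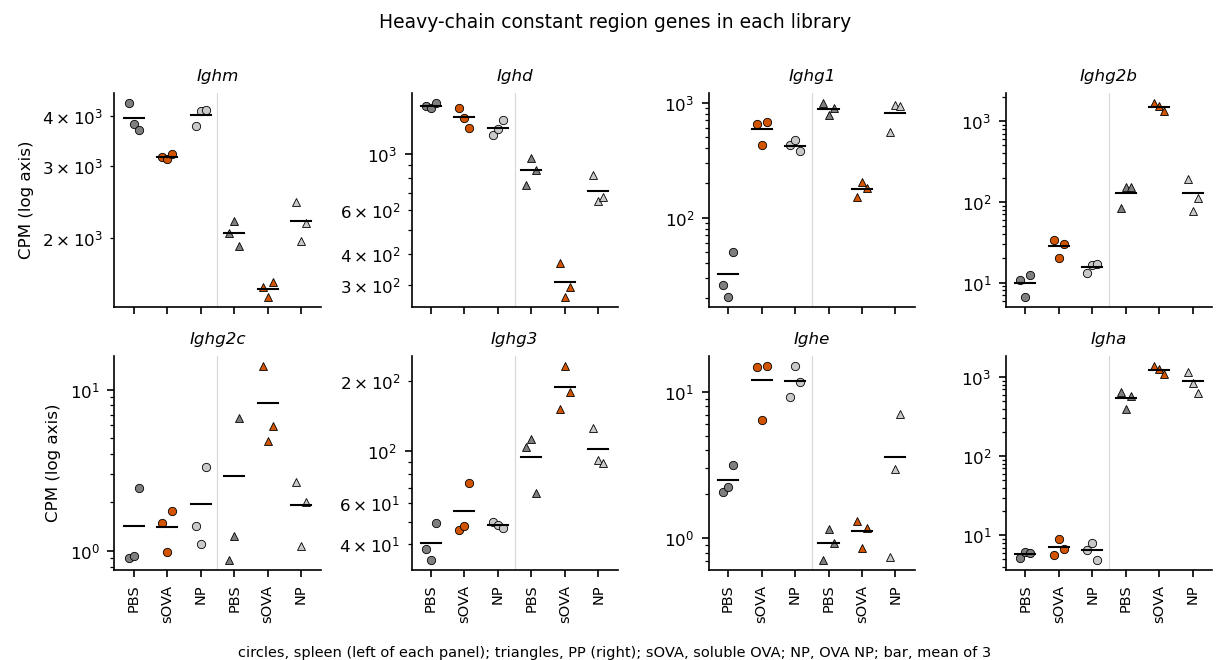
Level (CPM, log axis) of 8 heavy-chain constant region genes in each of 18 libraries, circles for spleen and triangles for PP, with a bar at the mean of 3. Soluble OVA libraries (orange) lie above PBS for *Ighg1* in spleen and below it in PP, while *Ighg2b* in PP reaches 1317 to 1677 CPM.

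Germinal center genes rose in spleen, and for most of those called in the interaction the log2 change was smaller in PP. Of 19 tested genes of this list, 14 rose in spleen and 0 fell, with a median log2 change of 1.60, whereas in PP 8 rose and 2 fell, with a median of 0.66. The interaction was called for 9 genes as lower in PP and for 2 as higher, with a list median of −1.08 beside −0.04 over all tested genes. The number called lower ranged from 5, without spleen PBS replicate 1 or PP soluble OVA replicate 3, to 13.

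*Gcsam*, a germinal center adaptor that limits B cell motility, was at 2.9, 2.63 and 7.95 CPM in spleen with PBS and at 62.6, 37.2 and 51.3 CPM with soluble OVA. In PP it moved from 134, 113 and 116 CPM to 180, 200 and 209 CPM. The groups were separate in both tissues, but the log2 change was 3.51 ± 0.36 in spleen and 0.69 ± 0.29 in PP, and the latter did not pass (adjusted p = 0.0983). The interaction was −2.81 ± 0.46 (adjusted p = 0.00848). *Mef2b*, a transcription factor that acts upstream of *Bcl6*, had an interaction of −2.53 ± 0.43, with 2.16, 2.59 and 7.18 CPM against 45, 31.5 and 35.9 CPM in spleen. In PP, *Mef2b* was 136, 118 and 123 CPM with PBS and 217, 205 and 205 CPM with soluble OVA. *Rgs13*, a regulator of chemokine receptor signaling, was the member with the most negative interaction, −2.99 ± 0.47. It rose in spleen from 2.51, 2.43 and 6.29 CPM to 37.8, 23.9 and 31.2 CPM. In PP its groups overlapped, at 129, 131 and 86.6 CPM with PBS and 100, 134 and 134 CPM with soluble OVA, a log2 change of 0.08 ± 0.29. In each of these 3 genes, spleen PBS replicate 3 was the highest of its group. For all 3, each PP library with PBS lay above each spleen library with soluble OVA. The log2 changes therefore do not rank the gains in CPM between the tissues.

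*Gcnt3*, a glycosyltransferase, was called in all 12 fits with a library left out, as were *Gcsam*, *Mef2b* and *Rgs13*. *Nuggc*, a nuclear GTPase of germinal center B cells, had an interaction of −2.44 ± 0.49 and rose in both tissues, by 3.61 in spleen and 1.17 in PP. *Neil1*, a DNA glycosylase, also rose in both, by 1.60 and 0.63. The calls of *Nuggc* and *Neil1* were lost without spleen PBS replicate 1 or PP soluble OVA replicate 3, with adjusted p up to 0.0704 and 0.0527. *S1pr2*, a receptor that confines B cells to the germinal center, and the death receptor gene *Fas* were less stable. *S1pr2* (−2.35 ± 0.49) lost its call without spleen PBS replicate 1 or 2, spleen soluble OVA replicate 1 or 3, PP PBS replicate 1, or PP soluble OVA replicate 2 or 3, with adjusted p up to 0.0698. *Fas* (−0.95 ± 0.24) lost it without any of these 7 and without PP PBS replicate 3, with adjusted p up to 0.093. *Mybl1*, a transcription factor of cycling germinal center cells, rose in spleen by 2.80 ± 0.41 and stood at 0.91 ± 0.35 in PP, but its interaction missed the threshold (−1.89 ± 0.53, adjusted p = 0.0753). In spleen, *Mybl1* was 8.56, 5.63 and 20.8 CPM with PBS and 95.9, 59.6 and 85.6 CPM with soluble OVA. Without spleen PBS replicate 3, the high library of its group, the interaction passed (adjusted p = 0.00097), as did that of *Basp1* (adjusted p = 0.000287 against 0.0538). Both also passed with DESeq2, limma voom and all 18 libraries, and *Basp1* with DESeq2's size factors and a filter of 10 counts in every library. *Bcl6*, the master repressor of the germinal center program, rose in both tissues, by 0.33 and 0.65, with an interaction of 0.32 (adjusted p = 0.135).

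Not all members of the list behaved alike. *Lmo2* was level in spleen (327, 344 and 337 CPM against 345, 321 and 313 CPM) and fell in PP from 200, 234 and 233 CPM to 109, 95.6 and 103 CPM, with an interaction of −1.08 ± 0.11. The 2 genes with a higher change in PP were *Bcl7a*, a chromatin remodeling subunit, and *Pou2af1*, a B cell coactivator needed for germinal centers. *Bcl7a* rose in PP from 163, 150 and 146 CPM to 270, 272 and 278 CPM, with an interaction of 0.65 ± 0.11 (adjusted p = 0.00203). *Pou2af1* rose in PP by 0.58 ± 0.07, and its interaction was 0.45 ± 0.10. Both were called in all 12 fits with a library left out, and *Pou2af1* lost its call without both libraries rich in receptor transcripts (adjusted p = 0.0839).

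Plasma cell genes rose more often than they fell in both tissues. In spleen 8 of 14 tested rose and 0 fell (median log2 change 0.48), and in PP 4 rose and 1 fell (median 0.25), with 3 called lower in PP in the interaction. Over all tested genes 7.72% rose and 2.98% fell in spleen, 14.4% rose and 15.9% fell in PP, and 5.07% were called lower in PP. With so few genes, the PP counts do not set this list apart from all genes. *Xbp1*, the transcription factor of the secretory program, rose in spleen from 64.2, 56.1 and 64.1 CPM to 94.3, 90.3 and 98.6 CPM. In PP *Xbp1* held 91.4, 79.7 and 84.8 CPM with PBS and 87.3, 79.6 and 84.6 CPM with soluble OVA, and its interaction of −0.65 ± 0.11 was called in all 12 fits with a library left out. *Irf4* and *Tent5c* were called in 4 and 3 of these fits, with adjusted p up to 0.101 and 0.109. Those of *Irf4* that lost the call omitted any spleen library, PP soluble OVA replicate 2 or PP soluble OVA replicate 3. Those of *Tent5c* omitted any spleen PBS library, spleen soluble OVA replicate 2 or 3, PP PBS replicate 1 or 2, or PP soluble OVA replicate 2 or 3. *Jchain*, which joins IgM and IgA polymers, rose in spleen (1.08 ± 0.16) and had an interaction of −0.72 (adjusted p = 0.0838), which passed without spleen PBS replicate 1 (adjusted p = 0.00368) and in the fit of all 18 libraries.

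Genes of naive follicular B cells fell in PP and mostly did not pass the test in spleen. Of 13 genes, 12 fell and 1 rose in PP (median log2 change −1.45), while 1 fell and 0 rose in spleen (median −0.27). The log2 changes in spleen ranged from −0.52 to 0.01, so most lay below 0 there as well, by less than in PP. The interaction was called lower in PP for 10 and higher for 1, with a list median of −1.13, and the number called lower ranged from 7, without spleen PBS replicate 1 or PP soluble OVA replicate 3, to 11.

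*Fcer2a* (chr8:3681737-3694175), which encodes CD23, was measured at 1121, 1078 and 1173 CPM in spleen with PBS and 1000, 994 and 869 CPM with soluble OVA. In PP it was 787, 877 and 888 CPM with PBS and 335, 244 and 264 CPM with soluble OVA. The PP groups were far apart, and the log2 change was −1.60 ± 0.11 there against −0.23 ± 0.11 in spleen. The interaction was −1.36 ± 0.15 (adjusted p = 9.06e-05). *Satb1*, a chromatin organizer, fell in PP from 125, 183 and 135 CPM to 73.7, 49.7 and 61.3 CPM, with an interaction of −1.13 ± 0.21. *Zfp318*, which is needed for IgD expression, fell in PP from 321, 414 and 353 CPM to 137, 121 and 139 CPM, and its interaction was −1.18 ± 0.14. *S1pr1*, the receptor by which lymphocytes exit tissue, fell in PP by 1.45 on the log2 scale, against a change of −0.37 in spleen that did not pass.

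These 4 genes, *Ighd* and *Btg1* were called in all 12 fits with a library left out. *Cd22*, an inhibitory coreceptor, lost its call without spleen PBS replicate 1 or PP soluble OVA replicate 3 (adjusted p up to 0.0802). *Ccr7*, the receptor that guides B cells to the T cell zone, and *Klf2*, which drives *S1pr1*, were the least stable. *Ccr7* was called in 3 of the 12 fits, those without PP PBS replicate 1 or 2 or PP soluble OVA replicate 1, and *Klf2* in 2, those without PP PBS replicate 1 or PP soluble OVA replicate 1, with adjusted p up to 0.0862 and 0.118 in the others. *Bach2*, a repressor of plasma cell differentiation, moved the other way: it rose in PP from 258, 285 and 227 CPM to 418, 377 and 342 CPM and had an interaction of 0.74 ± 0.14 (adjusted p = 0.00713). *Cxcr5* and *Klf3* fell in PP but had interactions of −0.35 and −0.37 that did not pass, although *Cxcr5* did without PP soluble OVA replicate 1 (adjusted p = 0.0294).

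Genes for B cell trafficking followed a similar course. Of 19 genes on this list, which shares *Ccr7*, *Klf2*, *S1pr1*, *S1pr2* and others with the lists above, 8 were called lower in PP and 0 higher (median −0.94). The number ranged from 5 to 10 with a library left out, the lowest without spleen PBS replicate 1 or 2, spleen soluble OVA replicate 1 or 3, or PP soluble OVA replicate 2 or 3. *Gpr183*, the oxysterol receptor that draws B cells to the outer follicle, went in PP from 118, 159 and 119 CPM to 54.8, 29.3 and 37.5 CPM. In spleen it went from 70.3, 71.7 and 86.6 CPM to 105, 92.1 and 94.7 CPM, which did not pass, and the interaction was −2.05 ± 0.30 (adjusted p = 0.00383). *Ccr6*, a receptor that positions B cells under the PP epithelium, fell in PP from 80.2, 104 and 80.7 CPM to 44.5, 36.9 and 38.8 CPM. It ranged from 79 to 105 CPM in spleen, with an interaction of −1.13 ± 0.17. *Itgb7*, the beta chain of the gut-homing integrin, fell in both tissues, by 0.30 in spleen and 1.31 in PP on the log2 scale, with an interaction of −1.02 ± 0.12. The levels in PP were 177, 180 and 175 CPM with PBS and 81.2, 62.5 and 70.3 CPM with soluble OVA.

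Cell cycle genes rose in both tissues. For DNA replication and S phase, 29 of 30 genes rose in spleen and 29 in PP, with medians of 0.76 and 0.92, and 0 were called in the interaction by edgeR, where 6 had an unadjusted p under 0.05. DESeq2 called 2 of these 30 genes, both higher in PP, and limma voom 0. For mitosis, 30 of 30 rose in each tissue, with medians of 1.50 and 1.11. The median interaction of the mitosis list was −0.36, and 17 of its 30 genes had an unadjusted interaction p under 0.05. *Mki67*, the proliferation marker, went from 148, 130 and 175 CPM to 414, 470 and 519 CPM in spleen and from 840, 735 and 679 CPM to 1610, 1806 and 1704 CPM in PP. Its log2 changes were 1.63 ± 0.12 and 1.18 ± 0.11 and its interaction −0.45 (adjusted p = 0.11). *Mcm5*, a subunit of the replicative helicase, rose by 0.81 and 0.90, with an interaction of 0.09 ± 0.11.

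Beside 5.07% of all tested genes, the interaction was called lower in PP for 5 mitosis genes, *Birc5*, *Ccnb2*, *Kif23*, *Tpx2* and *Cdca8*. The count ranged from 1 to 10 with a library left out, the lowest without spleen PBS replicate 1 or 2, spleen soluble OVA replicate 1, PP PBS replicate 1 or PP soluble OVA replicate 3, and it was 0 in the fit of all 18 libraries, 9 with DESeq2, 12 with limma voom, 11 with a filter of 10 counts in every library and 11 without both libraries rich in receptor transcripts. *Birc5*, which encodes survivin, was the member called in all 12 fits with a library left out, at −0.73 ± 0.16, and its call was lost in the fit of all 18 libraries (adjusted p = 0.0589). The other 4 calls were all lost without spleen PBS replicate 1 or 2, spleen soluble OVA replicate 1, PP PBS replicate 1 or PP soluble OVA replicate 3, with adjusted p up to 0.11.

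Immediate-early genes, which are transcribed within minutes of receptor or stress signals, fell in PP with soluble OVA. Of 25 tested, 23 fell and 0 rose in PP (median log2 change −1.13), and 2 fell and 0 rose in spleen (median −0.08). The interaction was called lower for 10 genes, with a list median of −0.99. The number ranged from 4, without PP soluble OVA replicate 3, to 16.

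*Egr2*, a zinc finger factor induced by antigen receptor signals, was at 45.5, 80.9 and 61.1 CPM in PP with PBS and at 27.2, 21.9 and 18 CPM with soluble OVA. In spleen it was 11.2, 14.2 and 13.1 CPM with PBS and 16.8, 16.3 and 17.6 CPM with soluble OVA, so the groups were separate in both tissues and moved in opposite directions, although only PP passed the test. The interaction was −1.88 ± 0.29 (adjusted p = 0.00256). *Junb*, a subunit of the AP-1 factor, fell in PP from 622, 1059 and 821 CPM to 361, 322 and 256 CPM and had overlapping groups in spleen between 160 and 188 CPM, with an interaction of −1.40 ± 0.25. *Ier2* and *Ier5* were called at −1.20 ± 0.23 and −0.79 ± 0.14. These 4 genes kept their call in all 12 fits with a library left out.

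The other 6 calls were less stable. *Zfp36* lost its call without PP soluble OVA replicate 3 (adjusted p = 0.0511). *Fos*, the AP-1 subunit, was called in 3 and *Fosb* in 2 of the 12 fits, with adjusted p up to 0.0721 and 0.103. For *Fos* the fits that kept the call were those without spleen soluble OVA replicate 2, PP PBS replicate 1 or PP soluble OVA replicate 1, and for *Fosb* those without PP PBS replicate 1 or PP soluble OVA replicate 1. *Egr1*, *Myc* and *Btg2* were called in 5, 6 and 7 of them, and the fits without spleen PBS replicate 1 or 3 or PP soluble OVA replicate 3 ended all 3 calls. *Egr1* also lost its call without spleen PBS replicate 2, spleen soluble OVA replicate 1 or 3, or PP PBS replicate 3. *Myc* also lost it without spleen PBS replicate 2, spleen soluble OVA replicate 2 or PP soluble OVA replicate 2, and *Btg2* without spleen soluble OVA replicate 1 or PP soluble OVA replicate 2. In PP with PBS these genes were several-fold above spleen, as for *Fosb* with 111, 239 and 167 CPM against 4.41, 5.91 and 3.5 CPM, and PP alone were digested. The part of the digestion in the fall was not tested. *Nr4a1*, a nuclear receptor widely used as a reporter of antigen receptor signals, fell in PP by 2.40 on the log2 scale, with an interaction of −2.11 that did not pass (adjusted p = 0.0665). It passed with DESeq2, with limma voom, with a filter of 10 counts in every library and without PP soluble OVA replicate 1, with adjusted p from 0.00499 to 0.171 over all alternatives. *Jun*, another AP-1 subunit, had an interaction of −0.87 (adjusted p = 0.102), which passed without PP PBS replicate 1 (adjusted p = 0.0242).

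NF-kB target genes gave the same order of tissues. Of 18 tested, 13 fell and 1 rose in PP, 3 fell and 2 rose in spleen, and 9 were called lower in PP in the interaction (median −0.48). That count ranged from 4 to 11, the lowest without spleen PBS replicate 1 or 2, spleen soluble OVA replicate 1 or PP soluble OVA replicate 3. *Cd83*, an activation marker that stabilizes MHC class II at the surface, moved in opposite directions. It rose in spleen from 219, 212 and 249 CPM to 572, 546 and 514 CPM. In PP it fell from 844, 1173 and 807 CPM to 458, 325 and 348 CPM. The groups did not overlap in either tissue, and the interaction of −2.59 ± 0.22 (adjusted p = 5.36e-05) was called in all 12 fits with a library left out. *Nfkbiz*, an inhibitor-like nuclear regulator, fell in PP from 92.1, 104 and 93.1 CPM to 64, 49.6 and 62.2 CPM and was also called in all 12 (−0.66 ± 0.13). *Nfkbia*, the classical inhibitor induced by the pathway, fell in both tissues, by 0.42 and 0.79, and its interaction of −0.37 was called in 2 of the 12 fits, those without spleen soluble OVA replicate 3 or PP soluble OVA replicate 1, with adjusted p up to 0.128. *Bcl3* (−0.51), *Bcl2a1b* (−0.82), *Birc3* (−0.53), *Nfkbie* (−0.45) and *Nfkb2* (−0.41) complete the called members with *Ccl4*. *Bcl3* lost its call without spleen PBS replicate 2 (adjusted p = 0.0528). *Bcl2a1b*, an anti-apoptotic gene with near-identical copies whose value is uncertain for that reason, lost it without spleen PBS replicate 1 or PP soluble OVA replicate 3. *Birc3*, *Nfkbie* and *Nfkb2* were called in 6, 3 and 4 of the 12 fits, and each was lost without spleen PBS replicate 1 or 2, spleen soluble OVA replicate 1 or 2, or PP soluble OVA replicate 2 or 3. *Ccl4*, a chemokine released by activated B cells, was at 0 counts in all 3 spleen PBS libraries and at most at 0.154 CPM after soluble OVA, so no fold is given there. In PP *Ccl4* fell from 2.88, 4.52 and 3.47 CPM to 0.833, 0.827 and 0.672 CPM, and its interaction call was lost without spleen soluble OVA replicate 1 (adjusted p = 0.186).

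The MHC class II presentation genes fell together in PP. Of 14 tested, 13 fell and 1 rose in PP (median log2 change −0.65), and in spleen 2 rose and 0 fell (median 0.10). The interaction was called lower for 12 of the 14, with a list median of −0.68, and the 2 not called were the costimulatory genes *Cd80* and *Cd86*. The number called ranged from 6, without spleen PBS replicate 1 or 2 or PP soluble OVA replicate 2 or 3, to 12.

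Class II genes are transcribed from promoters with a shared upstream module in which a CRE-like element and a CCAAT box, bound by NF-Y, lie close to the start site, and the coactivator CIITA is recruited to it. To show that module in the genes that moved together, the last 150 bases before the RefSeq start site (GRCm38.p6, the reference strain) are given for 4 called members, 5′ to 3′ on the strand of the gene. Capitals mark the CCAAT motif, which reads ATTGG when it lies on the other strand, and the CRE palindrome TGACGTCA. The stretches are chr17:34287824-34287973 (minus strand) for *H2-Aa*, chr17:34305717-34305866 (plus) for *H2-Eb1*, chr17:34153041-34153190 (plus) for *H2-DMb1* and chr17:34092229-34092378 (plus) for *H2-Oa*.
H2-Aa: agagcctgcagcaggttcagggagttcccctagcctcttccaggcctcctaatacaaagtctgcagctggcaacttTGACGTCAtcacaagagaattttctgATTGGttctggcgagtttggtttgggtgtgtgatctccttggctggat
H2-Eb1: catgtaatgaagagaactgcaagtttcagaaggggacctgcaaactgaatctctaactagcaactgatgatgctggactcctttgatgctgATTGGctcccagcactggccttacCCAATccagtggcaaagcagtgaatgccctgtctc
H2-DMb1: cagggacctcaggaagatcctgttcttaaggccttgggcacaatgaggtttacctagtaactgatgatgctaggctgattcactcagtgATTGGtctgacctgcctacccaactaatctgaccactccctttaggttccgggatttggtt
H2-Oa: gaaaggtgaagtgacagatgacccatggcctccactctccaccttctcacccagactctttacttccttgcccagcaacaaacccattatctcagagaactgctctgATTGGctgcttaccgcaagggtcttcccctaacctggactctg

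The ATTGG motif began at −48 in *H2-Aa*, −59 in *H2-Eb1*, −61 in *H2-DMb1* and −43 in *H2-Oa*, counted from the start site, and the CRE of *H2-Aa* at −74. RefSeq promoters were matched for 8 of the 12 called members, and *Cd40*, *Cd74*, *Ciita* and *H2-Ab1* had no entry. CCAAT on either strand was found in 7 of these 8, within 250 bases before to 50 after the start, against 41.1% of all 27025 genes with a promoter, and TGACGTCA in 1 of 8, against 2.03%. Of the called immediate-early genes 7 had a promoter entry, and 4 of those held CCAAT. These matches describe the letters in the windows only.

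*H2-Oa*, the alpha chain of a modulator of peptide loading that is particular to B cells and thymus, had the most negative interaction of the list, −1.05 ± 0.15 (adjusted p = 0.0006). It was 178, 168 and 187 CPM in PP with PBS and 118, 92.1 and 90.2 CPM with soluble OVA, and in spleen 167, 170 and 191 CPM against 225, 202 and 186 CPM. The groups were apart in PP and overlapped in spleen. *Ciita* (chr16:10480059-10528418), the class II coactivator itself, rose in spleen from 682, 730 and 803 CPM to 861, 955 and 906 CPM and fell in PP from 873, 989 and 937 CPM to 654, 543 and 558 CPM. Its interaction was −0.97 ± 0.13 (adjusted p = 0.000315). *H2-Ab1* (chr17:34257689-34269419), the beta chain of the I-A molecule, fell in PP from 2502, 2664 and 2603 CPM to 1916, 1539 and 1486 CPM. In spleen its groups overlapped between 2218 and 2764 CPM, and the interaction was −0.75 ± 0.15.

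*H2-DMa*, *H2-DMb1* and *H2-DMb2*, the peptide-loading chains, had interactions of −0.65, −0.68 and −0.77. Together with *H2-Oa*, *Ciita* and *H2-Ab1* they were called in all 12 fits with a library left out. *H2-DMb1* and *H2-DMb2* are near-identical copies, so that their separate values are uncertain. *H2-Aa* and *H2-Eb1* (−0.70 ± 0.16 and −0.63 ± 0.15) lost their calls without spleen PBS replicate 1 or 2 or PP soluble OVA replicate 2 or 3, and *H2-Eb1* also without PP PBS replicate 1, with adjusted p up to 0.0824 and 0.0981. *Cd74*, the invariant chain, went from 7990, 9244 and 8356 CPM to 6238, 4897 and 4827 CPM in PP, with an interaction of −0.69 ± 0.17. Its call was kept in 5 of the 12 fits, and lost without spleen PBS replicate 1 or 2, spleen soluble OVA replicate 1 or 2, PP PBS replicate 2 or PP soluble OVA replicate 2 or 3 (adjusted p up to 0.11). *H2-Ob*, *Ctss* and *Cd40* were each called in 4 or fewer of the 12, with adjusted p up to 0.118, 0.138 and 0.173, and the fits without spleen PBS replicate 1 or 2, spleen soluble OVA replicate 1, PP PBS replicate 2 or PP soluble OVA replicate 2 or 3 ended all 3. Fits without spleen PBS replicate 3 or spleen soluble OVA replicate 3 ended the call of *H2-Ob*, those without spleen soluble OVA replicate 2 or PP PBS replicate 1 or 3 the calls of *Ctss* and *Cd40*, and that without spleen PBS replicate 3 also that of *Cd40*. *Cd86*, a costimulatory ligand, rose in both tissues, by 0.47 and 0.32.

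**Figure D3:**
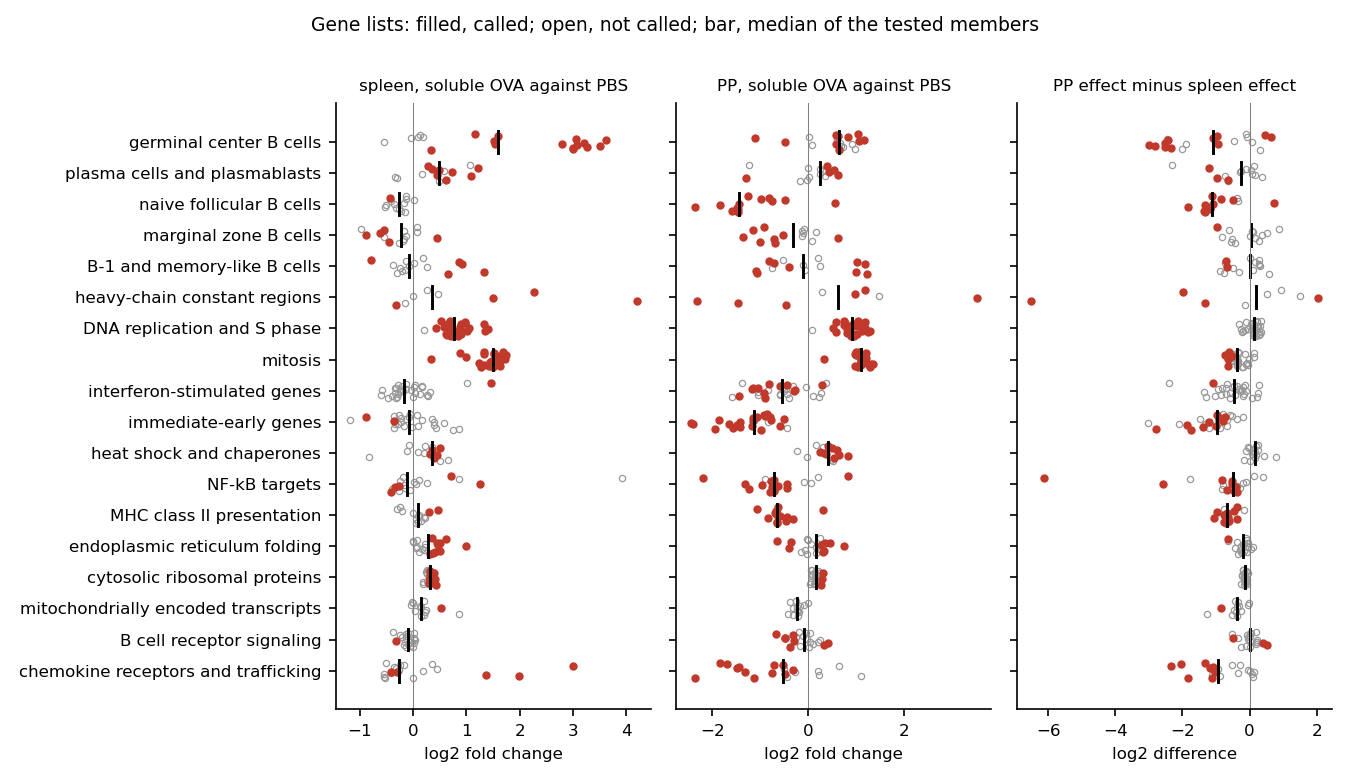
Log2 fold change with soluble OVA in spleen (left) and PP (middle) and their difference (right) for the tested members of 18 gene lists, each point 1 gene, filled where called, with a bar at the list's median. Germinal center genes lie far to the right in spleen and near 0.66 in PP, while the naive follicular, immediate-early and MHC class II lists lie left of 0 in PP. In spleen the medians of these 3 lists are −0.27, −0.08 and 0.10.

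Other lists held few interaction calls by edgeR, although some held more by other tools. Over all tested genes 6.84% were called in the interaction by edgeR. Of 30 interferon-stimulated genes, 11 fell and 1 rose in PP, 1 rose in spleen, and 1 was called in the interaction. The called gene was *Socs1*, an inhibitor of cytokine signaling, which rose in spleen from 4.02, 5.1 and 6.02 CPM to 15.5, 13.1 and 13.2 CPM and had an interaction of −1.09 ± 0.25. Its call was lost without spleen PBS replicate 1 (adjusted p = 0.0565). Of this list, 9 genes had an unadjusted p under 0.05, and DESeq2 called 5 and limma voom 1, all lower in PP. Of 20 endoplasmic reticulum folding genes, 10 rose in spleen, 6 rose and 3 fell in PP, and the single call in the interaction was again *Xbp1*, whereas DESeq2 called 4 and limma voom 6 lower in PP. Among 26 ribosomal protein genes, 16 rose in spleen and 3 in PP, and among 15 heat shock genes 6 rose in spleen and 9 in PP. In the edgeR interaction test 0 genes of either list were called, and 0 and 2 had an unadjusted p under 0.05. For heat shock genes DESeq2 and limma voom called 1 each, and for ribosomal protein genes 0.

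Beside 6.84% of all tested genes, the interaction was called for 1 of 14 marginal zone genes, *Myc*, which is also on the immediate-early list. Of this list 7 genes had an unadjusted p under 0.05, and DESeq2 and limma voom each called 5 lower in PP. For B-1 and memory-like B cells the interaction was called for 2 of 15 genes. The latter were *Bhlhe41*, a transcription factor of B-1 cells (−0.67 ± 0.13), and *Vim*, the intermediate filament vimentin (−0.70 ± 0.12), both called in all 12 fits with a library left out. *Cd9*, a tetraspanin of marginal zone, B-1 and plasma cells, fell in PP from 14.8, 8.16 and 11.1 CPM to 4.75, 3.9 and 4.75 CPM. Its interaction of −0.82 did not pass (adjusted p = 0.0719). It passed with DESeq2, with limma voom, with the filter of 10 counts, with all 18 libraries and without PP PBS replicate 2, with adjusted p from 0.0149 to 0.179 over all alternatives. *Il10*, which encodes the regulatory cytokine IL-10, stayed at or below 1.09 CPM in each of the 12 libraries and passed no test. Of 20 B cell receptor signaling genes, 2 were called higher in PP and 1, *Cd22*, lower. *Syk*, the proximal kinase, rose in PP from 764, 841 and 717 CPM to 1078, 914 and 959 CPM, with an interaction of 0.51 ± 0.12, and was called in all 12 fits with a library left out. Without both libraries rich in receptor transcripts its call was lost (adjusted p = 0.0942), and 0 genes of the list were called in either direction by edgeR. *Blnk*, the adaptor downstream of it, had an interaction of 0.40 ± 0.10 and kept its call in 4, those without spleen soluble OVA replicate 1, PP PBS replicate 2 or PP soluble OVA replicate 2 or 3, with adjusted p up to 0.0876.

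The mitochondrially encoded share of counts was 2.82% to 3.19% in spleen with PBS and 3.19% to 3.41% with soluble OVA. In PP it was 5.41% to 7.67% with PBS and 4.97% to 6.02% with soluble OVA. The difference between the 2 tissues' changes was −1.41 percentage points, with p = 0.095 in an exact two-sided permutation test of treatment within tissue over 400 relabelings, the smallest possible p being 0.005. Without PP PBS replicate 2 it was −2.01 points (exact permutation p = 0.01). Leaving out any other single library gave exact permutation p from 0.065 to 0.22. Among 13 mitochondrial transcripts, 1 was called in the interaction, *mt-Nd6* (−0.84 ± 0.21), which lies on the opposite strand from the others and kept its call in 3 of the 12 fits, those without spleen PBS replicate 1, spleen soluble OVA replicate 3 or PP PBS replicate 2, with adjusted p up to 0.092.

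Among the genes with the smallest interaction p-values, 8 genes are described that were picked after their values were seen, and 7 of them rose in spleen and either fell in PP or were not called there. *Samsn1*, an adaptor that restrains B cell activation, rose in spleen from 89.3, 83.8 and 96.7 CPM to 301, 288 and 245 CPM. In PP it fell from 126, 135 and 127 CPM to 67.3, 62.5 and 68.8 CPM. The groups were far apart in both tissues relative to their spread, and the interaction was −2.60 ± 0.12 (adjusted p = 1.97e-08). *Il4i1*, an amino acid oxidase induced by IL-4, moved in the same way, from 241, 219 and 266 CPM to 567, 480 and 493 CPM in spleen and from 310, 252 and 336 CPM to 178, 145 and 157 CPM in PP. Its interaction was −1.99 ± 0.16. *Nfil3*, a transcription factor needed for IgE class switching, rose in spleen from 1.94, 2.23 and 2.65 CPM to 12.2, 9.3 and 14.2 CPM. In PP *Nfil3* fell from 18.3, 16.6 and 15.5 CPM to 7.36, 6.06 and 6.09 CPM, so that PP began above and ended below the spleen level, with an interaction of −3.76 ± 0.25. *Socs3*, a feedback inhibitor of cytokine receptors, rose by 1.89 in spleen and fell by 0.56 on the log2 scale in PP.

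*Parm1*, a mucin-like membrane protein, went from 2.94, 2.83 and 4.71 CPM to 18.5, 16 and 15.8 CPM in spleen and from 48.4, 33.7 and 42.3 CPM to 6.66, 12.4 and 9.03 CPM in PP, with an interaction of −4.43 ± 0.33. *Lifr*, the receptor for leukemia inhibitory factor, rose in spleen from 4.93, 5.71 and 4.49 CPM to 68, 53.3 and 87.9 CPM. Its PP groups overlapped between 9.29 and 14.2 CPM, and the interaction was −4.04 ± 0.26. *Osbpl3*, an oxysterol-binding protein family member, rose in both tissues, by 3.15 ± 0.12 in spleen and 0.88 ± 0.09 in PP. *Sh3bgrl2*, which encodes a small thioredoxin-like protein, rose in spleen by 3.53 ± 0.21 and stood at 0.09 ± 0.15 in PP. Each of these 8 genes was called in all 12 fits with a library left out.

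**Figure D4:**
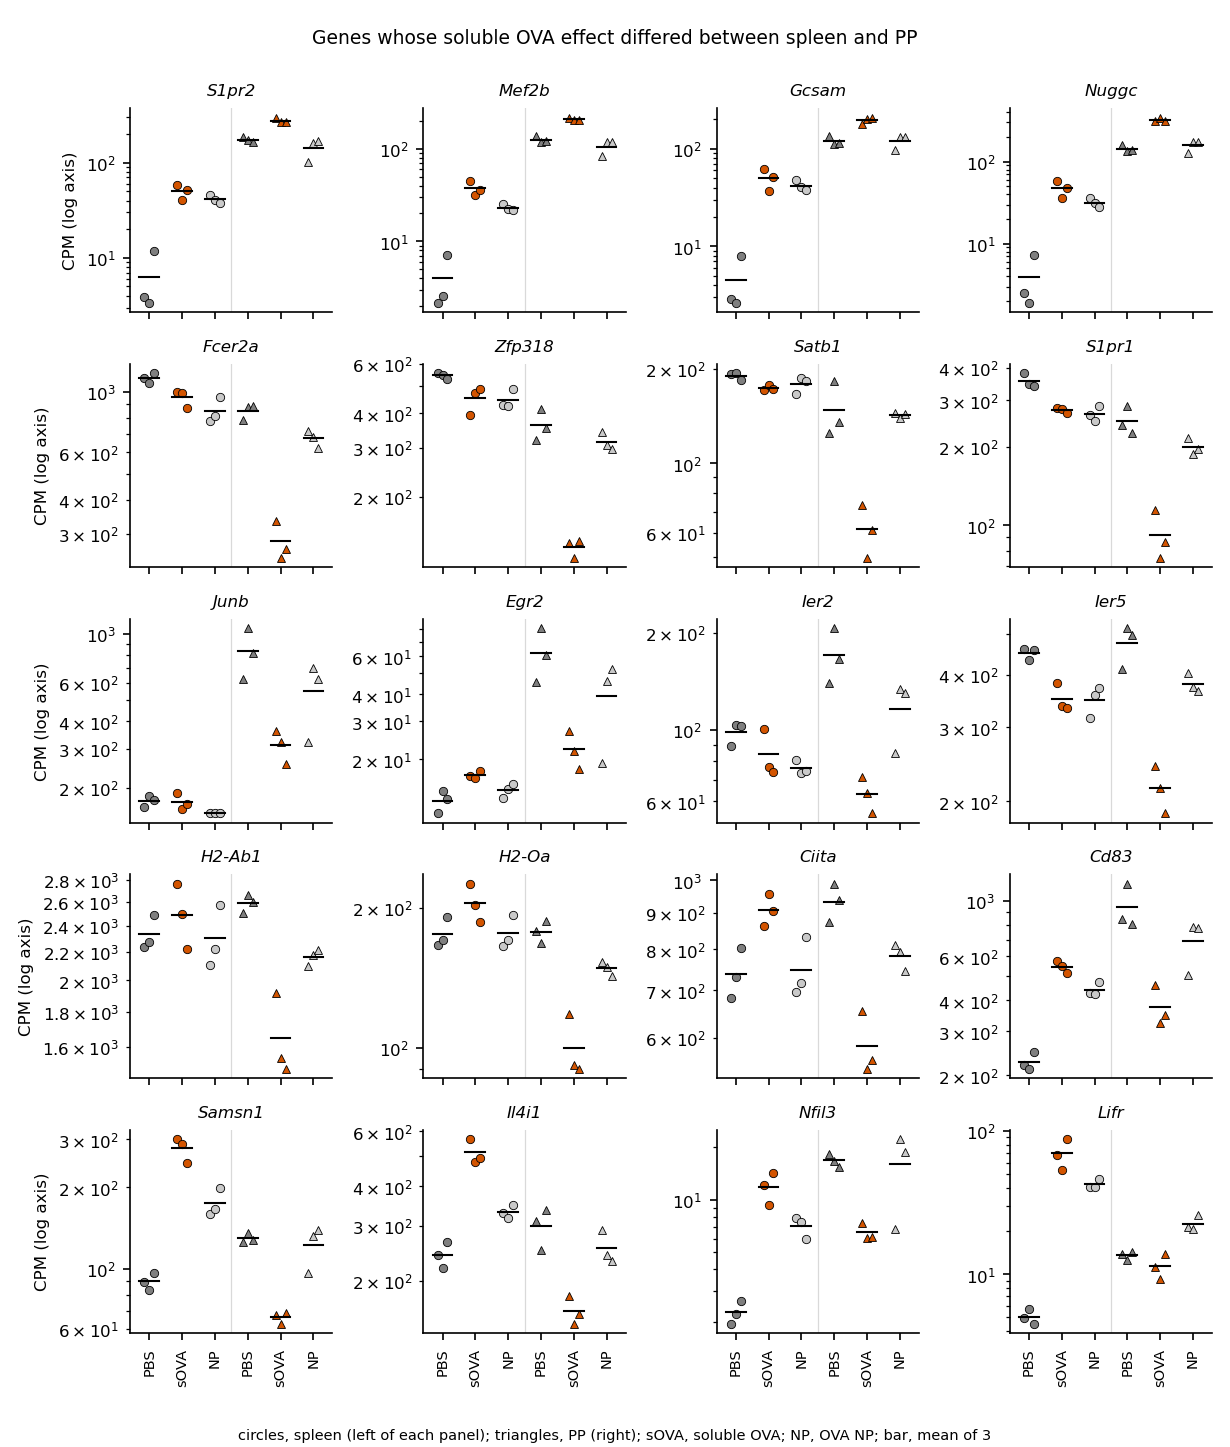
Level (CPM, log axis) of 20 genes in each of 18 libraries, circles for spleen and triangles for PP, with a bar at the mean of 3. The rows show, from the top, germinal center genes, naive follicular genes, immediate-early genes, MHC class II presentation genes with *Cd83*, and genes among those with the smallest interaction p-values; in the lowest row soluble OVA libraries (orange) lie above PBS in spleen and, for *Samsn1*, *Il4i1* and *Nfil3*, below it in PP.

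Among the 12 genes with the most negative interaction and a group mean of at least 1 CPM, *Ighg1* was far above the counting floor in each library. *Emp2* (chr16:10281749-10313968), a tetraspan membrane protein, was at 0.259, 0.081 and 0.269 CPM in spleen with PBS and at 5.91, 2.05 and 3.48 CPM with soluble OVA. The spleen PBS levels are close to or below the 3-count floor of 0.125 to 0.14 CPM in those libraries, so the size of the change in spleen is imprecise. In PP it fell from 39, 24 and 34.1 CPM to 4.37, 7.17 and 5.5 CPM. The groups were separate in both tissues and the interaction was −6.76 ± 0.60 (adjusted p = 7.55e-05), called in all 12 fits. *Slpi* and *Evc* are on the fixed list, which was chosen with earlier results of these data known. *Slpi*, a secreted protease inhibitor, rose in spleen from 3.11, 1.78 and 4.62 CPM to 78.4, 54.5 and 93.8 CPM. Its PP groups overlapped between 7 and 14.3 CPM, and the interaction was −4.53 ± 0.49. *Evc*, a ciliary protein of hedgehog signaling, rose in spleen from 0.346, 0.081 and 0.135 CPM to 2.07, 1.49 and 2.14 CPM and stood between 1.58 and 2.46 CPM in PP, with an interaction of −3.64 ± 0.57.

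The others of these 12 were rare transcripts, whose fitted values depend on the prior count where a group held libraries at 0. *Rprml* was at 0, 0 and 0.224 CPM in spleen with PBS and 3.15, 1.12 and 2.3 CPM with soluble OVA, and in PP at 1.67, 1.17 and 2.18 CPM against 0.486, 0.473 and 0.252 CPM. *Mc5r*, a melanocortin receptor gene, was at 0 counts in all 3 PP soluble OVA libraries and at 0.417, 0.146 and 0.259 CPM with PBS, and ranged from 1.69 to 2.85 CPM in spleen. *Avpr1a*, a vasopressin receptor gene, and *Ccdc175* were at 0 in each spleen PBS library. After soluble OVA they reached at most 0.372 and 0.576 CPM there, and their PP levels with PBS were 1.13 to 2.44 and 1.14 to 1.79 CPM. *Avpr1a* lost its call without both libraries rich in receptor transcripts (adjusted p = 0.0621).

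In *Trank1*, *Vmn2r53*, *Rbms3* and *Samd12*, spleen soluble OVA replicate 2 held 2.85, 3.54, 3.16 and 3.35 CPM, against at most 0.614 CPM in any other spleen library of the 12. PP PBS replicate 3 was the highest of its group in the same 4 genes, and these are the libraries rich in receptor transcripts. *Vmn2r53* was called in all 12 fits with a library left out but not with limma voom (adjusted p = 0.0991), whereas *Trank1*, *Rbms3* and *Samd12* lost their calls without spleen soluble OVA replicate 2 or PP PBS replicate 3. These 3 also lost them without any 1 spleen PBS library or any 1 PP soluble OVA library, *Rbms3* and *Samd12* without PP PBS replicate 1 and *Samd12* without PP PBS replicate 2, with adjusted p up to 0.0899, 0.0817 and 0.105. *Ccl4*, described with the NF-kB targets, was also among the 12.

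Genes with a higher change in PP were fewer and moved less. *Krt222*, a keratin-like gene, rose in PP from 8.1, 8.09 and 7.62 CPM to 27.3, 27.5 and 26.9 CPM, while its spleen groups overlapped between 4.01 and 5.88 CPM. The interaction was 1.73 ± 0.21 (adjusted p = 0.000165). *Rell1*, of the RELT receptor family, rose in PP from 10.3, 7.29 and 6.01 CPM to 32.1, 23.2 and 20.7 CPM, with an interaction of 1.59 ± 0.30. *Sox5*, a transcription factor of some memory and B-1 cells, rose in PP from 4.76, 3.72 and 3.01 CPM to 11, 9.96 and 10.4 CPM, with an interaction of 1.35 ± 0.29. In all 3 genes the spleen groups overlapped. *Dgkg*, a diacylglycerol kinase, rose in PP from 0.334, 0.0729 and 0.104 CPM to 2.6, 2.09 and 2.9 CPM, with an interaction of 4.44 ± 0.80. These 4 genes were called in all 12 fits with a library left out, as were *Kcnk5*, a potassium channel (1.11 ± 0.10), and *Trio*, a guanine nucleotide exchange factor (1.12 ± 0.11), which were picked after their values were seen.

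*Pla2g4c*, a phospholipase, had an interaction of 1.84 ± 0.43 and lost its call without spleen PBS replicate 1 (adjusted p = 0.0507). *Ccnb1ip1*, known from meiotic recombination, rose in PP from 1.25, 0.51 and 0.726 CPM to 3.47, 3.58 and 4.58 CPM, with an interaction of 1.66 ± 0.45. It was called in 4 of the 12 fits, those without spleen PBS replicate 3, spleen soluble OVA replicate 1, PP PBS replicate 1 or PP soluble OVA replicate 1, with adjusted p up to 0.11. *Apoe*, a lipid carrier, fell in spleen from 498, 445 and 604 CPM to 410, 359 and 321 CPM and stood at 857, 938 and 919 CPM against 1233, 1006 and 963 CPM in PP. Its interaction of 0.74 ± 0.17 lost its call without spleen soluble OVA replicate 2 or PP PBS replicate 1 (adjusted p up to 0.0531).

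The remaining genes of the 12 with the highest interaction, beside *Ighg2b*, were genes expressed by myeloid cells, though not only by them, that fell in spleen. *Ace*, the angiotensin-converting enzyme of patrolling monocytes and of the intestinal epithelium, went from 22, 18.4 and 29.8 CPM to 1.5, 3.54 and 1.39 CPM in spleen. In PP it held 81.2, 41.3 and 112 CPM with PBS and 53.6, 260 and 163 CPM with soluble OVA, with overlapping groups, and the interaction was 4.53 ± 0.99 (adjusted p = 0.032). The summed epithelial list in the same PP libraries was 575, 243 and 860 CPM with PBS and 293, 1182 and 1092 CPM with soluble OVA. This sum ranked the PP libraries in the same order as *Ace*. *Treml4* fell in spleen from 2.38, 2.27 and 6.51 CPM to 0.154, 0.558 and 0.267 CPM, *Cx3cr1* from 6.96, 5.71 and 10.5 CPM to 1.23, 2.98 and 0.749 CPM, and *Adgre4* from 7.13, 5.83 and 11.7 CPM to 1.19, 2.42 and 0.642 CPM. These 3 genes are expressed by nonclassical monocytes, and their spleen groups did not overlap. *Nr1h3*, the liver X receptor alpha of macrophages, fell in spleen by 1.44 on the log2 scale, with an interaction of 1.87 ± 0.52.

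Of the 13 tested genes of the monocyte and macrophage list, 5 fell in spleen and 2 were called in the interaction, against 2.98% and 6.84% of all tested genes. Their summed level was 132 to 294 CPM in spleen with PBS and 58.3 to 111 CPM with soluble OVA, and 187 to 315 and 173 to 381 CPM in PP. Of the 5 genes *Ace*, *Treml4*, *Cx3cr1*, *Adgre4* and *Nr1h3*, only *Ace* and *Treml4* are on this list. Each of these 5 lost its interaction call in at least 6 of the 12 fits with a library left out, and none kept it without spleen PBS replicate 1. *Treml4* and *Ace* kept theirs in 3, *Cx3cr1* in 6, *Adgre4* in 4 and *Nr1h3* in 2, with adjusted p up to 0.13, 0.0794, 0.0771, 0.0901 and 0.129. None of the 5 was called with limma voom, with adjusted p from 0.0503 to 0.219. The part of residual myeloid cells in these values, and of epithelial cells in the PP values of *Ace*, was not tested.

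**Figure D5:**
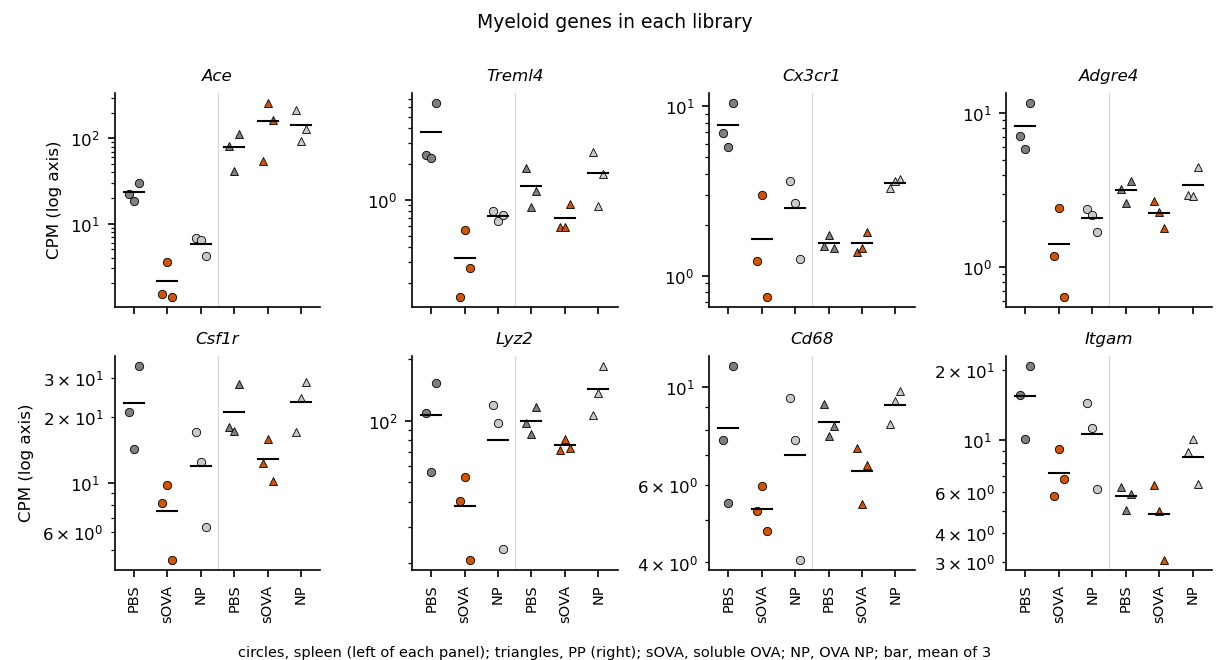
Level (CPM, log axis) of 8 myeloid genes in each of 18 libraries, circles for spleen and triangles for PP, with a bar at the mean of 3. In spleen the soluble OVA libraries (orange) lie below all PBS libraries for *Ace*, *Treml4*, *Cx3cr1* and *Adgre4*, while in PP the groups of *Ace* overlap.

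Markers of other cells gave few interaction calls. By edgeR 0 of the tested genes of the B cell, T cell, neutrophil, dendritic cell, erythroid, epithelial or NK cell and innate lymphoid lists were called. An unadjusted p under 0.05 was found for 3 T cell, 1 erythroid and 2 NK cell and innate lymphoid genes and for 0 in the other 4 lists. DESeq2 called 1 neutrophil gene, and limma voom 1 T cell and 1 NK cell and innate lymphoid gene. Beside 6.84% of all tested genes, 1 of 8 stromal and endothelial genes was called, *Pecam1* (−0.71 ± 0.13), which B cells also express. Its level in PP was 160, 181 and 165 CPM with PBS and 99.6, 75.2 and 82.1 CPM with soluble OVA. The summed level of this list was 229 to 264 CPM in PP with PBS and 96.2 to 123 CPM with soluble OVA, against 241 to 252 and 192 to 216 CPM in spleen. The NK cell and innate lymphoid list was at 37.2 to 51.3 CPM in PP with PBS and 26.2 to 27.7 CPM with soluble OVA. The part of these shifts in the falls measured in PP was not tested.

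Within each tissue, the genes with the largest changes were rare. In spleen *Rnf183* and *Cygb* were at 0 counts in all PBS libraries and reached 0.186 to 0.461 and 0.107 to 0.192 CPM with soluble OVA, and *Dusp14* went from at most 0.0449 CPM to 0.124 to 1.15 CPM. *Cd300e* and *Cd300ld3*, myeloid receptors, and *Mmp9*, a secreted protease, had the largest falls in spleen beside *Ace* and *Treml4*, with *Cd300e* going from 2.42, 1.94 and 2.78 CPM to 0.23, 0.31 and 0.321 CPM. In PP *Clgn*, a testis chaperone, rose from at most 0.25 CPM to 1.53, 1.58 and 2.31 CPM. *Tmc3* and *Rd3l* rose there from at most 0.209 CPM, *Tmc3* unevenly at 1.53, 0.394 and 0.042 CPM. *Nwd1* and *Duxf3* fell to 0 in each PP soluble OVA library. *Uty*, a Y-linked gene with a close copy on the X chromosome, was listed at 1.21, 0.656 and 1.24 CPM in PP with PBS and at most at 0.0394 CPM with soluble OVA, although all mice were female.

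The OVA NP libraries share the PBS controls with the comparisons above, so their levels are given side by side without a test. *Ighg1* was at 377 to 468 CPM in spleen and 558 to 958 CPM in PP with OVA NPs, against 429 to 671 and 151 to 204 CPM with soluble OVA. *Ighg2b* stood at 13 to 17.1 CPM in spleen and 76.2 to 193 CPM in PP with OVA NPs, where soluble OVA gave 1317 to 1677 CPM in PP. The PP levels with OVA NPs overlapped those with PBS for both genes. *Gcsam* was at 37.5 to 47.4 CPM in spleen with OVA NPs, close to the 37.2 to 62.6 CPM with soluble OVA, and *Lifr* at 40.3 to 46.1 against 53.3 to 87.9 CPM. In PP, *Fcer2a* was at 618 to 720 CPM, *H2-Ab1* at 2097 to 2212 CPM and *Samsn1* at 96.8 to 139 CPM with OVA NPs. Each of these 3 lay above all PP libraries of soluble OVA, which held 244 to 335, 1486 to 1916 and 62.5 to 68.8 CPM. *Mki67* was at 584 to 860 CPM in PP with OVA NPs, overlapping the 679 to 840 CPM of PBS, whereas soluble OVA gave 1610 to 1806 CPM.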

How the data were processed

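B cell RNA (polyA) was sequenced in 18 libraries. Per the submitters' processing notes, cutadapt 2.3, FastQC 0.11.8, STAR 2.7.8a, RSEM 1.3.3 and MultiQC 1.7 were used with GRCm38. The authors deposited 1 table of RSEM expected counts for 55491 genes, already whole numbers. RSEM divides reads among similar genes by probability, which affects close copies. Strand handling is not given in the sources used here.

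Groups came from the labels. The 12 libraries of PBS and soluble OVA were fitted together in edgeR 4.0.16 (R 4.3.3), with TMM scaling, filterByExpr by group (minimum count 10, minimum total 15), robust quasi-likelihood tests and Benjamini-Hochberg adjustment over 16541 genes. The interaction was called at adjusted p under 0.05, and the change within a tissue also required an absolute log2 fold change above 0.25. CPM were scaled by TMM over all 18 libraries, fold changes come from the fit of 12, and ± values are standard errors of log2 changes. The columns of all 18 libraries matched labels, and no replicate pair held identical values. The 12 libraries held 14177253 to 30052297 counts, and the 3-count floor covers counting error only.

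Genes were named by rule: the 12 called genes per direction with the largest interaction and a group mean of at least 1 CPM, without antigen receptor segments and unnamed models, 5 per direction and tissue by the same filters, each called list member and a fixed list. Lists and members were chosen with earlier results of these data known, and lists are described by counts and medians with no set test. Alternatives were DESeq2 1.42.0, limma 3.58.1 voom, other scaling and filters, all 18 libraries, replicate blocks, each tissue alone and leaving out each library. Another left out the immunoglobulin genes, although *Igkc*, the kappa constant region gene, stayed in. A few genes are not reported here. The procedure was tested on simulated data. RefSeq promoter windows ran from 250 bases before to 50 after the start. They were searched on both strands for CCAAT, for the CRE TGACGTCA and for CANNTG. The E-box CANNTG was in 72.3% of windows and is not used, and ISRE and NF-kB motifs were not searched. Positions of promoter windows are those of RefSeq GRCm38.p6, and positions of whole genes come from a GENCODE annotation of GRCm38.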

Additional observations from a re-analysis of the deposited data

Results flagged for a closer look

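In total, 1131 genes differed between the 2 tissues in their response to soluble OVA by the edgeR interaction test. Among the genes with the largest difference in each direction (log2 change in PP minus that in spleen), those higher in PP were *Ace* 4.53, *Dgkg* 4.44, *Treml4* 2.64, *Cx3cr1* 2.23, *Adgre4* 2.07, *Ighg2b* 2.03, *Nr1h3* 1.87, *Pla2g4c* 1.84, *Krt222* 1.73, *Ccnb1ip1* 1.66, *Rell1* 1.59 and *Sox5* 1.35. Those lower in PP included *Trank1* −7.09, *Rprml* −6.87, *Avpr1a* −6.79, *Emp2* −6.76, *Ccdc175* −6.57, *Ighg1* −6.51, *Vmn2r53* −6.44, *Rbms3* −6.36, *Samd12* −6.32, *Ccl4* −6.13 and *Mc5r* −5.94. Each of these 23 passed the test of the difference itself. The fitted sizes of *Trank1*, *Rprml*, *Avpr1a*, *Ccdc175*, *Rbms3*, *Samd12*, *Ccl4* and *Mc5r* rest on libraries at 0 counts and are no bound.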

How the results depend on the processing

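Beside the 1131 genes called in the interaction, DESeq2 called 1816 and limma voom 1755, and the fit without both libraries rich in receptor transcripts, an alternative added after seeing the data, called 606. The cause of these differences was not tested. With 1 library left out, the interaction count ranged from 655 to 1279, the spleen count of 1770 from 1077 to 1929, and the PP count of 5017 from 4294 to 5095. The spleen count was 1077 without spleen PBS replicate 1, 1084 without spleen PBS replicate 2 and 1093 without spleen soluble OVA replicate 1. The difference in mitochondrial share ranged from −2.01 to −0.88 percentage points. Other scaling, filters, 18 libraries or leaving out the immunoglobulin genes except *Igkc* gave 1138 to 1487 interaction calls. The 6 libraries of each tissue fitted alone gave 2428 calls in spleen and 4320 in PP. Of 121 genes followed individually, 106 were called, 51 of them under each alternative, 55 lost the call in at least 1, and none changed sign. Whether same-numbered spleen and PP libraries came from the same mouse is not given in the labels, and the main fit treated them as independent. Same-numbered libraries correlated weakly between spleen and PP, at 0.0439 to 0.200. Even so, 6 of 6 spleen and 5 of 6 PP libraries matched best with their own number, so a shared mouse remains possible. Between PBS and soluble OVA the same-number correlations were −0.394 to 0.0585. With the number as a replicate block, 893 interaction genes, 1638 in spleen and 4821 in PP were called. With a block shared across tissues, 1251 genes were called in the interaction, 998 of them also in the main fit. That fit called 6 germinal center genes lower in PP, against 9 in the main fit, and 12 MHC class II genes, as in the main fit. *Ighg2b* lost its interaction call under both blocks (adjusted p = 0.0594 and 0.0674), and *Rgs13* and *Ccdc175*, called in every fit with a library left out, lost theirs under the block shared across tissues (0.0709 and 0.0513). Depth limits statements on transcripts near 0.0998 to 0.212 CPM.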
